A study of Rattus norvegicus with 8 samples.

Results

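The genes described here set the pace of the G1 phase of the cell cycle or respond to the tumour suppressor p53. They are the D and E cyclins Ccnd1, Ccnd2, Ccnd3 and Ccne1, the inhibitors of cyclin-dependent kinases Cdkn1a (p21), Cdkn1b (p27) and Cdkn2c (p18), the p53 targets Ccng1 and Mdm2, and the proto-oncogene Myc. Members were all probe sets whose single gene symbol in the platform annotation was one of these 10 names, which gave 17 probe sets of 31042, for 10 genes of 14217 with such a symbol. Their RNA was measured in livers of male Wistar rats made cirrhotic by inhalation of the hepatotoxin carbon tetrachloride (CCl4), which every rat received, together with phenobarbital, an inducer of hepatic drug metabolism, at 0.3 g/L in the drinking water. One group had received an antiangiogenic treatment (4 arrays, called antiangiogenic 1 to 4) and the other vehicle (4 arrays, vehicle 1 to 4), although the series text calls the control rats non-treated. The sources used here give neither the compound and its dose nor the age of the rats. RNA came from frozen liver and was hybridized to Affymetrix Rat2302 arrays, 8 arrays for 8 rats by the series text, which speaks of angiogenesis inhibitors without naming them.

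Cells leave quiescence when D cyclins accumulate and activate the kinases CDK4 and CDK6, and cyclin E with CDK2 then carries them into S phase. The Cip/Kip inhibitors p21 and p27 and the Ink4 inhibitor p18 restrain these kinases. p53 induces Cdkn1a, Ccng1 and Mdm2 after DNA damage, and the Mdm2 protein in turn marks p53 for degradation. In liver, cyclin D1 is the main D cyclin induced when hepatocytes re-enter the cycle after injury or resection, and Myc is an early gene of that response.

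The arrays had lower quartiles of 3.74 to 3.91 on the log2 scale, and hepatocyte markers (8 of 8 measured) had mean levels of 12.92 to 13.37 in antiangiogenic and 13.17 to 13.40 in vehicle livers. As a sign of RNA integrity, the 3′ Gapdh control probe set exceeded the 5′ one by 0.13 to 0.40 in antiangiogenic and 0.19 to 0.41 in vehicle livers on the log2 scale, and that of beta-actin by 1.77 to 1.88 in antiangiogenic and 1.70 to 1.91 in vehicle livers. Antiangiogenic 3 and vehicle 4 stood apart as a nearly identical pair, with r = 0.996 across probe sets against 0.956 to 0.988 in the 27 other pairs. Each group thus holds a near-copy of an array of the other. The labels give them as separate samples, and whether 1 is a repeat of the other under the wrong group label, which would change a group's arrays and its n, cannot be told apart from 2 alike livers here. Values without this pair (6 arrays, 3 a group) are therefore given beside the results. The bacterial spike-in controls formed 3 groups of arrays: antiangiogenic 1 with vehicle 1, antiangiogenic 2 and 4 with vehicle 2 and 3, and the nearly identical pair. All differences below are antiangiogenic minus vehicle in log2 intensity, values after ± are SDs over 4 arrays, intervals are 95% intervals from limma, and adjusted p-values are limma's after Benjamini-Hochberg adjustment over the 31042 probe sets.

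Promoters of the p53 targets are shown first. Ccng1 and Mdm2 were highest on antiangiogenic 3, vehicle 3 and vehicle 4, while Cdkn1a was highest on vehicle 1. The contrast is partial for Ccng1, which correlated with Cdkn1a (1388674_at) at r = 0.60 over 8 arrays and 0.54 over 6. At the second Cdkn1a probe set (1387391_at) the values were 0.44 and 0.49. The Mdm2 probe sets correlated with Cdkn1a (1388674_at) at 0.22 to 0.37 over 8 arrays and -0.0007 to 0.22 over 6. With Ccng1 they correlated at 0.72 to 0.91 over 8 arrays and 0.54 to 0.85 over 6. Of the 10 genes, 7 had an entry in the RefSeq promoter table of the rat build GRCr8, which runs from 250 bases before to 50 bases after each gene's start; Ccnd1, Ccnd2 and Myc did not match. Capitals mark matches to the p53 half-site, whose consensus reads the same on both strands. The 3 windows are those of Cdkn1a (chr20:7150682-7150981, + strand), Ccng1 (chr10:25684827-25685126, - strand) and Mdm2 (chr7:55200742-55201041, - strand), printed 5′ to 3′.
Cdkn1a: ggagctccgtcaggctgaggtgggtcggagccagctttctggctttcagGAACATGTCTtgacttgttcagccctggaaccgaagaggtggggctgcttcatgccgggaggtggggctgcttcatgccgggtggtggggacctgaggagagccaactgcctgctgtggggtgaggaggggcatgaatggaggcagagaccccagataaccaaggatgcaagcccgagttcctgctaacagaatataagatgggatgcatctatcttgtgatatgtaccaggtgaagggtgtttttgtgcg
Ccng1: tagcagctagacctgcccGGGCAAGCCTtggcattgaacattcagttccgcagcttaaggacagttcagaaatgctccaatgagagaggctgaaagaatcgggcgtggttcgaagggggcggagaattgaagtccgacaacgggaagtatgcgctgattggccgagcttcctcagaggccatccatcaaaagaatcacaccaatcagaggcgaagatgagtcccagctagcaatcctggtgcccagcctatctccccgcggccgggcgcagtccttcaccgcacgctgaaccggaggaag
Mdm2: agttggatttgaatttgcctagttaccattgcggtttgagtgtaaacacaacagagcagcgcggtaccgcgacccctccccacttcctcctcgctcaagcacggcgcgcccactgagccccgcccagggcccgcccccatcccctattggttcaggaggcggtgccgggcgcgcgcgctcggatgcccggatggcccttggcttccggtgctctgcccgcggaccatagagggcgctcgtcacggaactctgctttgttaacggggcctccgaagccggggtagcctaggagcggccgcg
The match of Cdkn1a begins 201 bases and that of Ccng1 232 bases before the annotated start. Mdm2 holds no match in this window, and sequence beyond it, which ends 50 bases after the start, was not searched. Of the 7 member promoters 3 held a half-site (Cdkn1a, Ccng1 and Cdkn2c), against 7.98% of 33469 rat promoters in the table. The E-box CACGTG, which Myc with its partner Max binds, was found in 0 of the 7 (6.42% of all promoters), and the E2F-type motifs TTTCCCGC and TTTGGCGC, searched on both strands, in 0 of the 7 (0.974% and 0.493%). With 0 matches to these motifs in the 7 windows, no overlap with a marked half-site was possible. These matches are letters in a window, not measured binding.

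The largest difference among the members was that of Ccnd1, which encodes cyclin D1, with levels 2.35-fold lower in antiangiogenic livers at its brightest probe set, although no member passed the adjusted threshold. Across all 31042 probe sets, limma called 0% at an adjusted p of 0.05, and 0 of the 17 member probe sets were called. At an unadjusted p of 0.05, 3 of 17 member probe sets were lower (2 of Ccnd1 and that of Ccnd2) and 0 higher, against 3.93% of all probe sets in either direction, 2.04% lower and 1.89% higher. That count of 3 was 1 without antiangiogenic 1, antiangiogenic 2 or vehicle 1, 2 without vehicle 3 and 0 without vehicle 2. Over the 6 arrays without the nearly identical pair, 0 members were called at an adjusted p of 0.05 (0.00966% of all probe sets), and 3 were lower and 0 higher at an unadjusted p of 0.05 (3.67% and 2.85%). By any amount, 14 of the 17 member probe sets were lower, against 45.3% of all probe sets. Taken by the probe set with the highest mean, all 10 genes were lower in antiangiogenic livers by some amount, against 48.4% of 14217 genes, with a median difference of -0.35 against 0.01 over all genes. It was 8 genes without vehicle 1, and 9 without antiangiogenic 1 or 3. In 0 of the 17 member probe sets were the groups free of overlap, against 1.67% of all probe sets (0.58% lower), and in 1 of 17, that of Ccnd2, over the 6 arrays, against 10.3% (4.41% lower).

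**Figure D1:**
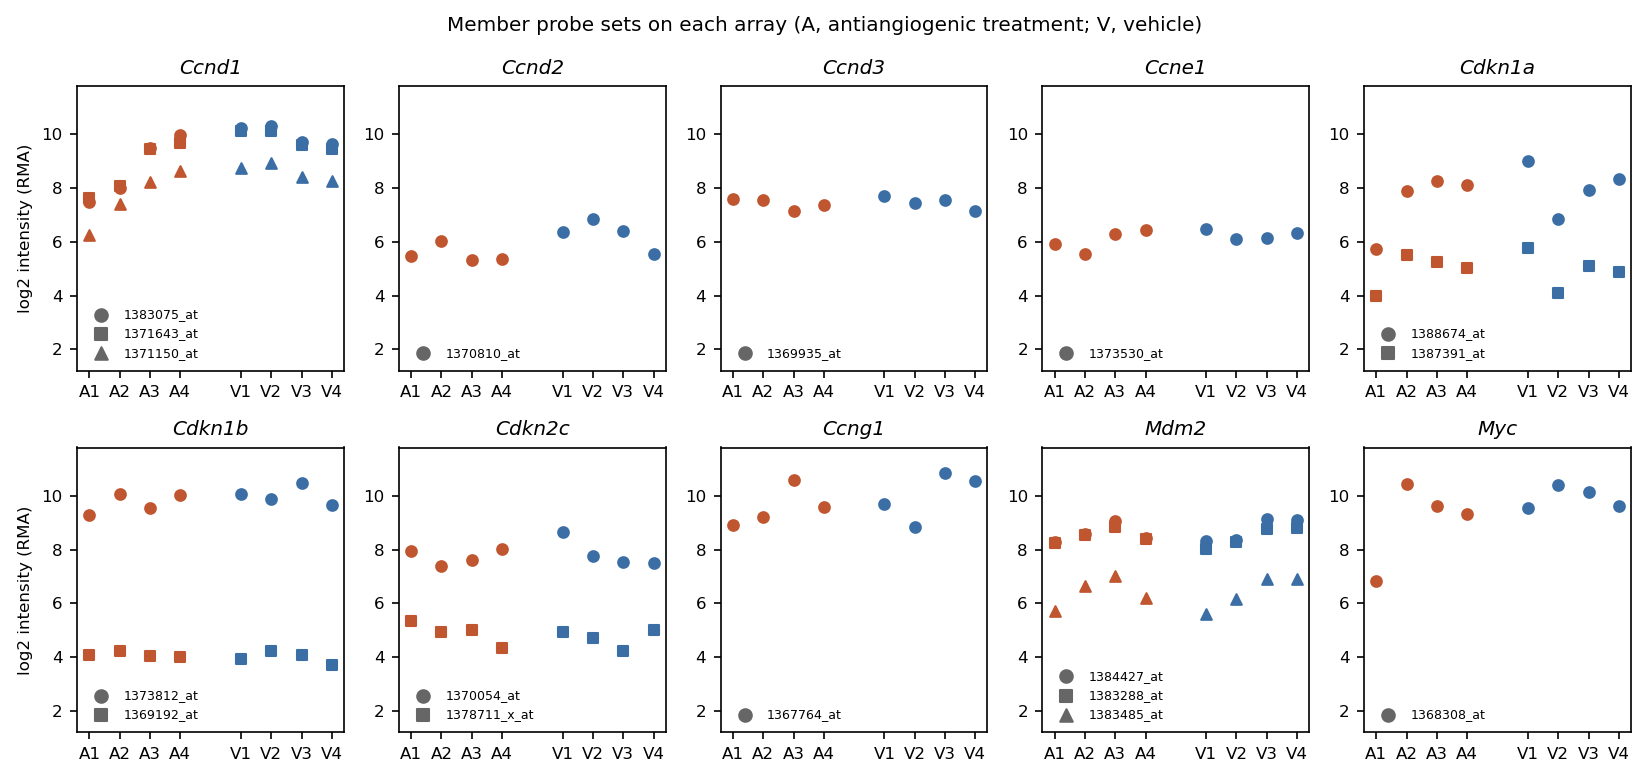
Log2 intensity of the 17 member probe sets (vertical axis) on each array (horizontal axis; A1 to A4 antiangiogenic, V1 to V4 vehicle), 1 panel a gene, with a marker shape for each probe set. Ccnd1 is low on A1 and A2 at all 3 probe sets, Ccng1 and Mdm2 are high on A3, V3 and V4, and Myc and Cdkn1a have their lowest values on A1.

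Ccnd1 was low in 2 of the 4 antiangiogenic livers. Its probe set 1383075_at stood at 7.50, 7.99, 9.49 and 9.97 on antiangiogenic 1 to 4, and at 10.22, 10.31, 9.72 and 9.64 on vehicle 1 to 4. Antiangiogenic 1 and 2 thus lay more than a log2 unit below every vehicle array, while antiangiogenic 4 lay inside the vehicle range and antiangiogenic 3 just under it. The group means were 8.74 ± 1.18 and 9.97 ± 0.34, a difference of -1.23 (interval -2.38 to -0.08, unadjusted p = 0.0384, adjusted p = 0.979). A further Ccnd1 probe set, 1371643_at, gave 7.62, 8.08, 9.44 and 9.68 on antiangiogenic 1 to 4 and 10.14, 10.12, 9.60 and 9.44 on vehicle 1 to 4. Its difference was -1.12 (interval -2.13 to -0.11). At 1371150_at the values were 6.27, 7.39, 8.23 and 8.64 on antiangiogenic and 8.74, 8.95, 8.41 and 8.25 on vehicle arrays, a difference of -0.95 (interval -1.98 to 0.07). The 3 probe sets ranked the livers alike, with r of 0.97 or more between any pair of them over the 8 arrays.

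Leaving out the nearly identical pair, Ccnd1 differed by -1.60 (interval -3.04 to -0.15, adjusted p = 0.751) at 1383075_at, -1.49 at 1371643_at and -1.27 at 1371150_at. Within the spike-in groups its difference was -2.72 between antiangiogenic 1 and vehicle 1, -1.03 among antiangiogenic 2 and 4 with vehicle 2 and 3, and -0.14 between the nearly identical arrays. Without antiangiogenic 1 it was -0.82. Proliferation markers of S to M phase, genes of replication and mitosis, moved with it: 17 of 17 measured genes were lower in antiangiogenic livers (0 at an unadjusted p of 0.05, median difference -0.64). Their mean level was 5.58, 5.70, 6.84 and 7.73 on antiangiogenic 1 to 4 and 7.88, 7.12, 7.35 and 6.84 on vehicle 1 to 4, so that antiangiogenic 1 and 2 were again the lowest livers. Ccnd1 and this mean correlated at r = 0.93 over 8 arrays and 0.95 over 6, as a description of arrays that share tissue and processing. Stellate cell and myofibroblast markers (8 of 8 lower, r = 0.78 with Ccnd1 over 8 arrays and 0.85 over 6) and those of T and natural killer cells (7 of 8 lower, r = 0.78 and 0.94) moved with it as well. So did, less closely over 8 arrays, markers of hepatocytes (r = 0.74 and 0.79), erythroid cells (0.69 and 0.76), B and plasma cells (0.66 and 0.84) and bile duct (0.66 and 0.81). Neutrophil markers had the lowest r (0.18 and 0.39). The part of any of these cells in the Ccnd1 difference was not tested. In bulk tissue, fewer cells of a type and less RNA per cell cannot be told apart.

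Ccnd2, which encodes cyclin D2, a further activator of CDK4 and CDK6, was 1.69-fold lower in antiangiogenic livers. Its single probe set (1370810_at) stood at 5.47, 6.03, 5.32 and 5.35 on antiangiogenic 1 to 4, against 6.36, 6.87, 6.40 and 5.57 on vehicle 1 to 4. Vehicle 1 to 3 lay above all antiangiogenic arrays, and vehicle 4, the partner of antiangiogenic 3, lay among them. The means were 5.54 ± 0.33 and 6.30 ± 0.54, a difference of -0.76 (interval -1.37 to -0.14, unadjusted p = 0.0216, adjusted p = 0.979). Without the nearly identical pair the difference was -0.93 (interval -1.48 to -0.38, adjusted p = 0.636) and the groups did not overlap. In the spike-in groups Ccnd2 differed by -0.89, -0.95 and -0.25.

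Ccnd2 and Ccnd1 did not order the livers in the same way. Markers of endothelium moved with Ccnd2: 7 of 7 measured were lower in antiangiogenic livers, 4 of them at an unadjusted p of 0.05, with mean levels of 6.84 to 7.02 in antiangiogenic and 6.85 to 8.11 in vehicle livers, and r = 0.90 with Ccnd2 over 8 arrays (0.88 over 6). Mast cell markers were lower at 7 of 7, 6 of them at an unadjusted p of 0.05, with mean levels of 4.05 to 4.28 in antiangiogenic and 4.27 to 6.18 in vehicle livers (r = 0.83 with Ccnd2). Erythroid markers were lower at 4 of 5, 2 of them at an unadjusted p of 0.05, with mean levels of 5.42, 5.41, 5.62 and 5.47 on antiangiogenic 1 to 4 and 6.29, 6.16, 6.05 and 5.55 on vehicle 1 to 4 (r = 0.82 with Ccnd2 over 8 arrays and 0.83 over 6). Neutrophil markers were lower at 3 of 4, 0 of them at that p, with mean levels of 4.55 to 5.55 in antiangiogenic and 4.20 to 5.56 in vehicle livers (r = 0.76). Markers of T and natural killer cells were lower in 7 of 8 cases, 2 of them at that p. Their mean levels were 4.41 to 4.85 in antiangiogenic and 4.52 to 5.17 in vehicle livers (r = 0.64). Stellate cell and myofibroblast markers were lower at 8 of 8, 2 of them at that p. Their mean levels were 7.26 to 8.68 in antiangiogenic and 7.94 to 9.23 in vehicle livers (r = 0.42). Of all genes, 4.75% were under an unadjusted p of 0.05 in either direction. The part of any of these cells in the Ccnd2 difference was not tested.

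**Figure D2:**
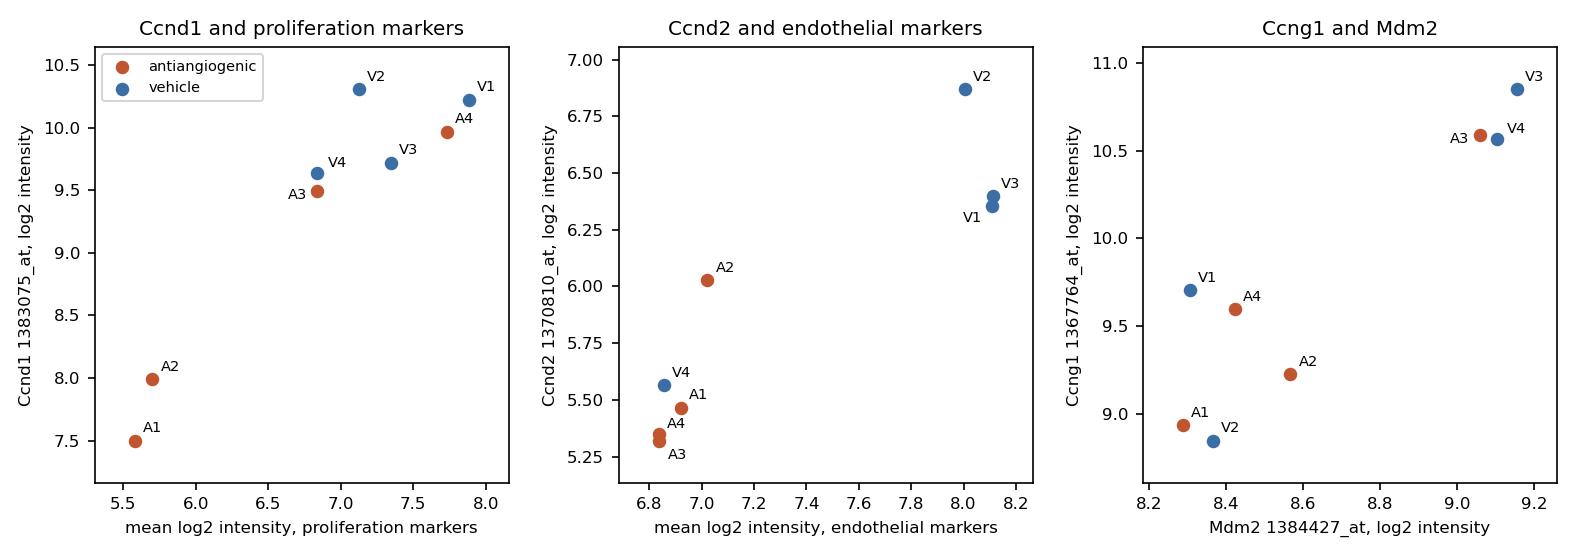
Log2 intensity of Ccnd1, Ccnd2 and Ccng1 (vertical axes) on the 8 arrays against the mean log2 intensity of proliferation markers, that of endothelial markers and the log2 intensity of Mdm2 (horizontal axes), with antiangiogenic arrays (A1 to A4) in orange and vehicle arrays (V1 to V4) in blue. A1 and A2 lie apart for Ccnd1 (7.50 and 7.99), V1 to V3 lie apart for Ccnd2 (6.36 to 6.87), and A3, V3 and V4 lie apart for Ccng1 (10.57 to 10.85).

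The remaining G1 cyclins differed by little. Ccnd3, cyclin D3 (1369935_at), stood at 7.61, 7.54, 7.14 and 7.36 on antiangiogenic 1 to 4 and at 7.70, 7.46, 7.56 and 7.17 on vehicle 1 to 4. The groups covered the same range, and the difference was -0.06 (interval -0.40 to 0.29). Ccne1, cyclin E1 (1373530_at), gave 5.93, 5.57, 6.28 and 6.46 on antiangiogenic and 6.47, 6.09, 6.14 and 6.33 on vehicle arrays. Antiangiogenic 1 and 2 were its lowest livers, as for Ccnd1, and the groups overlapped, with a difference of -0.20 (interval -0.64 to 0.24) that was -0.036 without antiangiogenic 2. Ccne1 correlated with the proliferation mean at r = 0.85 over 8 arrays and 0.90 over 6. Without the nearly identical pair, Ccnd3 differed by -0.07 and Ccne1 by -0.25.

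Among the kinase inhibitors, Cdkn1a varied most between livers and did not separate the groups. At 1388674_at it stood at 5.74, 7.88, 8.25 and 8.12 on antiangiogenic 1 to 4 and at 9.01, 6.85, 7.92 and 8.33 on vehicle 1 to 4. Antiangiogenic 1 and vehicle 2 were low and vehicle 1 high, and the difference of -0.53 (interval -1.92 to 0.86) became 0.055 without antiangiogenic 1. The second Cdkn1a probe set, 1387391_at, gave 3.98, 5.52, 5.24 and 5.02 on antiangiogenic and 5.79, 4.10, 5.09 and 4.87 on vehicle arrays, a difference of -0.02 (interval -0.94 to 0.90). It ranked the same livers low and high (r = 0.89 with the first). Within the spike-in groups 1388674_at differed by -3.27, 0.61 and -0.08. Over the 6 arrays the differences were -0.68 at 1388674_at and -0.15 at 1387391_at. With the macrophage marker mean, 1388674_at correlated at r = 0.77 over 8 arrays and 0.91 over 6, and 1387391_at at 0.72 and 0.78. The part of these cells was not tested.

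Cdkn1b, p27, a brake on CDK2 in resting cells, was measured by 1 bright and 1 dim probe set. At 1373812_at it stood at 9.28, 10.07, 9.56 and 10.02 on antiangiogenic 1 to 4 and at 10.08, 9.88, 10.48 and 9.67 on vehicle 1 to 4. The groups overlapped, with a difference of -0.30 (interval -0.81 to 0.21) that was -0.15 without antiangiogenic 1 or without vehicle 3. It correlated with the macrophage marker mean at r = 0.92 over 8 arrays and 0.94 over 6, and the part of these cells was not tested. The dim 1369192_at, near the lower quartile of the arrays, gave 4.09, 4.22, 4.05 and 4.02 on antiangiogenic and 3.92, 4.22, 4.07 and 3.69 on vehicle arrays, a difference of 0.12 (interval -0.18 to 0.42). The 2 probe sets did not follow each other across livers (r = 0.13), and without the nearly identical pair they differed between groups by -0.36 and 0.04.

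Cdkn2c, p18, which binds CDK4 and CDK6, likewise had a brighter and a dimmer probe set (means 7.80 and 4.81) that disagreed. At 1370054_at it stood at 7.94, 7.40, 7.60 and 8.02 on antiangiogenic 1 to 4 and at 8.64, 7.77, 7.53 and 7.52 on vehicle 1 to 4, where vehicle 1 was the highest liver. The difference was -0.12 (interval -0.71 to 0.47). The other, 1378711_x_at, gave 5.33, 4.93, 5.005 and 4.32 on antiangiogenic and 4.94, 4.72, 4.25 and 5.0001 on vehicle arrays, a difference of 0.17 (interval -0.37 to 0.71), with r = 0.09 between the 2. Over the 6 arrays they differed by -0.19 and 0.23, again with opposite signs.

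Ccng1 and Mdm2 were high in the same 3 arrays, which came from both groups. Ccng1, cyclin G1 (1367764_at), which recruits a phosphatase to Mdm2, stood at 8.93, 9.23, 10.59 and 9.59 on antiangiogenic 1 to 4 and at 9.71, 8.85, 10.85 and 10.57 on vehicle 1 to 4. Antiangiogenic 3, vehicle 3 and vehicle 4 were high, and 2 of these are the nearly identical pair, so that they stand for fewer distinct profiles than arrays. The group difference was -0.41 (interval -1.50 to 0.68, adjusted p = 0.979), -0.55 without the pair, and between -0.79 (without vehicle 2) and -0.12 (without vehicle 3) on leaving out 1 array.

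Mdm2, the ubiquitin ligase of p53, had 3 probe sets that were high in these livers, while the order of the other livers differed from that of Ccng1. At 1384427_at it stood at 8.29, 8.57, 9.06 and 8.42 on antiangiogenic 1 to 4 and at 8.31, 8.36, 9.16 and 9.10 on vehicle 1 to 4, a difference of -0.15 (interval -0.71 to 0.41). At 1383288_at the values were 8.23, 8.53, 8.83 and 8.40 on antiangiogenic and 8.01, 8.30, 8.78 and 8.80 on vehicle arrays, a difference of 0.03 (interval -0.44 to 0.49). The third, 1383485_at, gave 5.70, 6.65, 7.02 and 6.21 on antiangiogenic and 5.62, 6.18, 6.92 and 6.92 on vehicle arrays, a difference of -0.01 (interval -0.82 to 0.79). The same 3 arrays were the highest at each Mdm2 probe set. Over the 6 arrays the differences were -0.18, 0.02 and -0.05. Ccng1 correlated with them at r = 0.91, 0.75 and 0.72 over 8 arrays, and at 0.85, 0.58 and 0.54 over the 6 without the pair.

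Other genes of the p53 pathway shared those high livers only in part. Gadd45a, a p53 target of growth arrest and repair (1368947_at), stood at 8.54, 11.12, 11.35 and 9.34 on antiangiogenic 1 to 4 and at 7.79, 9.41, 11.37 and 11.34 on vehicle 1 to 4, with r = 0.88 to Mdm2 (1384427_at) and 0.64 to Ccng1 over 8 arrays, and 0.81 and 0.45 over 6. It was high in the 3 arrays named above and also in antiangiogenic 2. Ephx1, microsomal epoxide hydrolase, ran the other way (r = -0.80 to Ccng1 and -0.78 to Mdm2 over 8 arrays, -0.80 and -0.79 over 6). These 2 genes were picked with their values in view. Of 36 listed genes 27 were measured. Their mean level had r = 0.70, 0.73 and 0.83 with the 3 Mdm2 probe sets over 8 arrays, and 0.74, 0.78 and 0.90 over 6. With Ccng1 it had r = 0.57 over 8 arrays and 0.55 over 6. This mean is not scaled, so its most variable genes weigh most in it. These were Dusp1 (SD 1.51 over the 8 arrays) and Gadd45a (SD 1.44). Single genes of the list lay on both sides of 0 in their r to Mdm2 (1384427_at), for example Sesn2 at 0.72 and Igfbp3 at -0.68 over 8 arrays. The mean thus does not describe the list gene by gene. Of the 27 genes, 16 were higher and 11 lower in antiangiogenic livers, with a median difference of 0.07 against 0.01 over all genes. At an unadjusted p of 0.05, 0 were higher and 1 lower, Sfn, which encodes 14-3-3 sigma (1374806_at). It stood at 5.18, 5.05, 5.02 and 5.33 on antiangiogenic 1 to 4 and at 6.03, 5.53, 5.79 and 5.14 on vehicle 1 to 4, with vehicle 4 inside the antiangiogenic range (difference -0.47, interval -0.90 to -0.05, adjusted p = 0.979).

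Myc, a transcription factor of growth and ribosome synthesis (1368308_at), was low in a single liver. It stood at 6.82, 10.46, 9.63 and 9.32 on antiangiogenic 1 to 4 and at 9.54, 10.41, 10.13 and 9.62 on vehicle 1 to 4. Antiangiogenic 1 lay far under every other array, and antiangiogenic 2 was the highest of all 8. The difference of -0.87 (interval -2.38 to 0.65, adjusted p = 0.979) was -0.12 without antiangiogenic 1 and -1.16 without the nearly identical pair. Its SD over the 8 arrays was larger than that of 99.1% of probe sets. Macrophage markers, 5 of 6 measured lower, had their lowest mean on the same array, with mean levels of 7.49 to 8.80 in antiangiogenic and 8.39 to 9.14 in vehicle livers (r = 0.80 with Myc). Hepatocyte markers also had their lowest mean there, 12.92 (r = 0.79 with Myc), and the part of either cell type in the Myc difference was not tested.

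The Myc network outside Myc itself had 7 genes higher and 7 lower of 14 measured (median difference -0.01), with 0 at an unadjusted p of 0.05. Its mean level was lowest on antiangiogenic 1 (7.45) and highest on antiangiogenic 2 (7.85), the arrays where Myc was lowest and highest. Its r to Myc was 0.78 over 8 arrays and over 6, below the 0.84 and 0.85 of the p53 list mean, in which the most variable genes weigh most. The smallest p-values were those of Mxi1, a Max-binding antagonist of Myc (1372093_at, difference 0.38, interval -0.08 to 0.85), and Odc1, ornithine decarboxylase, a Myc target of polyamine synthesis (1370163_at, difference -0.36, interval -0.81 to 0.10). For Mxi1, antiangiogenic 1 to 4 stood at 8.64, 8.97, 9.06 and 8.75, above vehicle 1 to 3 at 8.41, 8.16 and 8.25, while vehicle 4 stood at 9.07.

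Genes of the G1 machinery that are not members differed in both directions. Of 28 measured, 9 were higher and 19 lower in antiangiogenic livers (median difference -0.07), with 1 higher and 0 lower at an unadjusted p of 0.05, against 4.75% of all genes in either direction. The one higher was Fbxw7, a ubiquitin ligase subunit that targets cyclin E and Myc (1379332_at). It stood at 5.67, 5.78, 5.12 and 5.28 on antiangiogenic 1 to 4 and at 5.27, 5.04, 4.76 and 4.96 on vehicle 1 to 4, a difference of 0.46 (interval 0.06 to 0.86, adjusted p = 0.979), with antiangiogenic 3 within the vehicle range. The mean level of this list was 6.37, 6.47, 6.62 and 6.79 on antiangiogenic 1 to 4 and 6.77, 6.68, 6.73 and 6.64 on vehicle 1 to 4, lowest on antiangiogenic 1 and 2 as for Ccnd1, with r = 0.94 to it over 8 arrays and 0.95 over 6. This mean is not scaled, so its most variable gene weighs most in it. That gene was Cdkn3, a phosphatase of cyclin-dependent kinases (SD 1.57 over the 8 arrays, r = 0.974 to Ccnd1). Some genes of this list were picked with their values in view. Cdkn3 had a larger difference than Ccnd1 (-1.60, interval -3.48 to 0.27). That of the retinoblastoma relative Rbl1 was smaller than that of Ccnd1 (-0.76, interval -1.65 to 0.13). The transcription factors E2f8 and E2f2 differed by -0.57 and -0.56, the kinases Cdk4 and Cdk2 by -0.05 and 0.14, and the retinoblastoma gene Rb1 by 0.12. Among the proliferation markers, the smallest p-values were those of Ccnb2, cyclin B2 (difference -1.51, interval -3.11 to 0.10), and Mki67, the Ki-67 antigen (-1.77, interval -3.69 to 0.15).

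**Figure D3:**
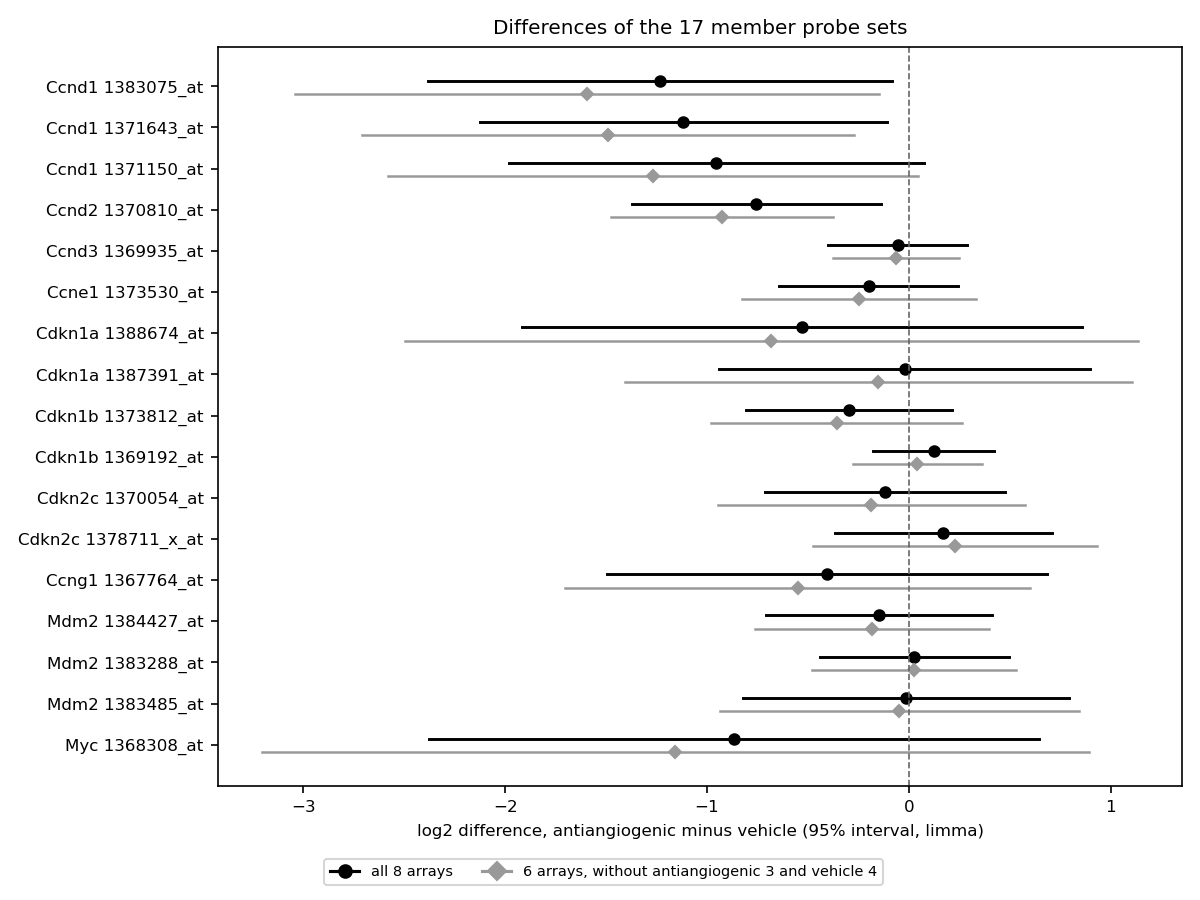
Log2 difference, antiangiogenic minus vehicle, of the 17 member probe sets (horizontal axis) with 95% limma intervals, over all 8 arrays (black circles) and over the 6 arrays without the nearly identical pair (grey diamonds). Intervals of 2 Ccnd1 probe sets and of Ccnd2 lie below 0 in both fits, and the other 14 span 0.

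**Figure D4:**
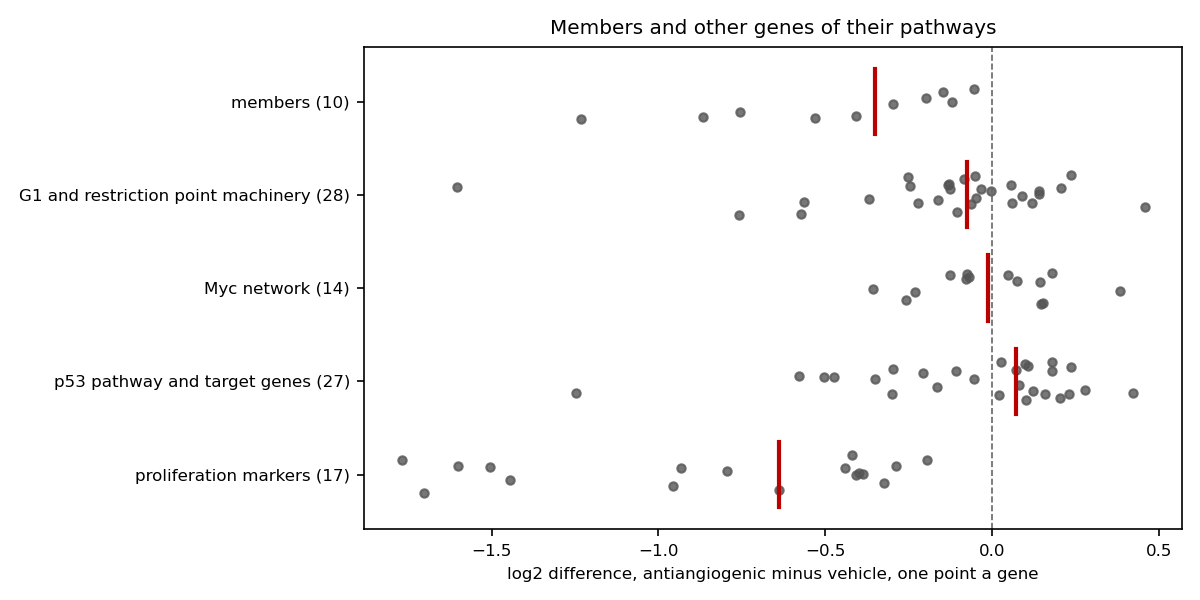
Log2 difference, antiangiogenic minus vehicle (horizontal axis), of the 10 members and of the other measured genes of their pathways (28 of the G1 machinery, 14 of the Myc network, 27 of the p53 pathway and 17 proliferation markers), 1 point a gene at its main probe set, red bars at the medians. The medians are -0.35, -0.07, -0.01, 0.07 and -0.64 from top to bottom.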

How the data were processed

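Per the labels' protocols, total RNA of frozen liver was extracted with Trizol, purified with RNeasy and copied from an oligo(dT) primer into biotinylated cRNA, so signal depends on RNA integrity and on distance from the 3′ end. The authors used affy and RMA, per the submitters' processing notes; the sources used here give no versions or settings. The deposited log2 values (31099 probe sets, 8 arrays) were used as they are. RMA draws small differences of dim probe sets towards 0. The 57 control probe sets were left out, and 0 array columns were unused. Gene names came from the platform annotation (20826 probe sets with 1 symbol, 436 with several, 9780 with none listed). The number of arrays limits the precision.

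Groups followed the sample titles. limma (version 3.58.1, R 4.3.3) was fitted with lmFit and eBayes on all 31042 probe sets without covariates, with Benjamini-Hochberg adjustment and a threshold of 0.05, and was tested on simulated data. The probe set with the highest mean stands for a gene. Every member probe set is reported; from each pathway list up to 4 genes under an unadjusted p of 0.05 are named, or the 2 with the smallest p. Other genes named by value are singled out in the text. Marker lists of bile duct (median difference -0.27), B and plasma cells (0.03), neutrophils (-0.20) and erythroid cells (-0.13) were also summarised. Members, lists and alternatives were chosen with earlier results of these data known. Correlations are Pearson's over arrays. Alternatives were quantile normalization, median centring, filters at the 40th percentile or a mean of 6, trend and robust eBayes, array weights, the replicate number or the spike-in group as a block, the mean of a gene's probe sets, and leaving out arrays.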

Additional observations from a re-analysis of the deposited data

Results flagged for a closer look

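Cdkn1a (1388674_at) stood at 5.74 on antiangiogenic 1, far from the 7.88 to 8.25 of the other antiangiogenic arrays, with a gap to the nearest of them that made up 0.853 of the group's range, above the 95% critical value of Dixon's test. It was the only such value among the 34 groups of 4 arrays examined (17 member probe sets in both groups), and chance alone marks about 5% of groups.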

How the results depend on the processing

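Of 289 member differences recomputed under alternatives, 0 passed the adjusted threshold and 21 changed sign; 11 of the 17 member probe sets kept their direction under every alternative run. For Cdkn1a 1387391_at the difference became 0.026 with quantile normalization, 0.032 with median centring and 0.080 with array weights, for Mdm2 1383485_at 0.0406, 0.0409 and 0.10, and for Cdkn2c 1370054_at 0.026 with the mean of its probe sets. Leaving out 1 array moved Ccnd3 between -0.16 and 0.036, Cdkn1a 1388674_at between -0.92 and 0.055 and 1387391_at between -0.31 and 0.30, Cdkn2c 1370054_at between -0.23 and 0.14, and Mdm2 1383288_at between -0.13 and 0.14 and 1383485_at between -0.28 and 0.22. For Ccnd1 (1383075_at) the range was -1.64 to -0.82, for Ccnd2 -1.0005 to -0.57 and for Myc -1.33 to -0.12. Median centring adds 0.05 to every difference.

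The count of probe sets at an adjusted p of 0.05 was 0, with 0 to 11 when 1 array was left out (11 without vehicle 4) and 3 without the nearly identical pair. At an unadjusted p of 0.05 it was 1220, with 538 (without antiangiogenic 1) to 2885 (without antiangiogenic 4) on leaving out 1 array, 2047 with array weights, 792 and 481 with the filters on dim probe sets, which test fewer probe sets, and 2025 without the pair. Without vehicle 1, 3 or 4 it was 650, 626 and 2466. The member count of 3 ranged from 0 to 3 on leaving out 1 array and was 1 with the spike-in group as a block and 4 with array weights, where all 3 Ccnd1 probe sets and Ccnd2 were under that p. With the replicate block 785 probe sets, 1 of them a member, were under that p; the numbers were not taken to pair the samples, as same-numbered arrays deviated together at r = -0.62 to 0.04 and 1 of 8 arrays correlated best with its own number. The cause of these changes was not tested. Dim probe sets such as Cdkn1b 1369192_at limit what can be seen of their genes.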

Other observations

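Genes whose levels ran most like the 4 most variable members over the 8 arrays were sought among 8495 genes with a mean above 6. Closest to Myc were Rhob (r = 0.989), a small GTPase, Klf11 (0.986), a Krüppel-like transcription factor, and Hpgds (0.972), a prostaglandin D synthase. Closest to Ccnd1 were Apoa1 (0.985), the main protein of high-density lipoprotein and a gene of the hepatocyte marker list, Cdkn3 (0.974), a kinase-associated phosphatase of the cell cycle, and Smc2 (0.974), a condensin subunit. Cdkn1a was nearest to Igfbp5 (0.972), an insulin-like growth factor binding protein, and Gnb1 (0.956), a G protein subunit. Next came the transcript annotated COX2 (0.936), which varied little (SD 0.11 over the 8 arrays, against 1.01 for Cdkn1a). For Ccng1 the closest genes were Zwint (0.981), a kinetochore protein, Pck2 (0.981), the mitochondrial phosphoenolpyruvate carboxykinase, and Mast2 (0.971), a kinase. These are ranks over few arrays, of which 2 are nearly identical, and describe these arrays alone. Without that pair the 12 values lay between 0.930 and 0.995.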
